A study of Penicillium oxalicum with 114 samples.

Results

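POX07535 and POX02740 are 2 genes of Penicillium oxalicum, a mould that releases enzymes able to break down plant biomass, and both belong to a list of 9 cellulase genes known from earlier work on this species. They were selected on their measured CPM (counts per 1000000 counts) out of 9863 gene IDs, because they were much higher on wheat-bran media than on glucose in the wild type and differed on arachidonic acid oil, so their values in those libraries are given as a description, without a test. The other 7 listed cellulase genes are POX05587, POX04786, POX01166, POX05570 and POX05571, called the main cellulase genes here, with POX06835 and POX03641. The files give no products for the IDs and none matched the reference table, so neither member is given an enzyme class, a genome position or a sequence.

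RNA-seq of mycelium gave 114 libraries in 33 groups of strain, medium and time. The deletion strains were MuPOXClrB, MuPOX01167, MuPOX02968, MuPOX04420 and MuPOX07277, each lacking the gene in its name and with 3 libraries per group, and MuOES1167 overexpresses POX01167 from its own promoter (3 libraries). Their control was MuKu70, a strain without the POXKu70 gene; the labels do not say whether the deletion strains lack it too, or how many clones stand behind a strain. The last strain was the wild type HP7-1. HP7-1 was grown from spores for 72 h on wheat bran, wheat bran plus rice straw or wheat bran plus bagasse (1 library each) and on glucose (3 libraries), and MuPOX01167 and MuPOXClrB were also grown from spores for 72 h on an inducing carbon source. All other cultures began with mycelium moved into new medium, from glucose wherever the labels say so. They stood for 24 h on the inducing carbon source, given as Avicel in the growth protocols (MuPOXClrB, MuPOX02968, MuPOX04420, MuOES1167, and 24 libraries of MuKu70). Others stood for 12 or 36 h on Avicel, a microcrystalline cellulose (AV; MuPOXClrB also at 24 h), or for 12, 24 or 36 h on wheat bran plus Avicel (WA), in MuPOXClrB, MuPOX01167 and MuKu70. For 24 h MuPOX07277 and MuKu70 were kept on Avicel with oleic acid, linolenic acid or an oil of arachidonic acid. The study asked which genes go up and down with the cellulase and xylanase genes.

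Cellulases of filamentous fungi are secreted enzymes that cut cellulose together: endoglucanases cut inside the chain, cellobiohydrolases work from its ends and beta-glucosidases split the short products. Their genes are usually held low on glucose and switched on by cellulose or by plant material such as wheat bran. ClrB is known from other filamentous fungi as a transcription factor needed for cellulase genes on cellulose.

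Library totals ran from 365937 to 14731797 expected counts, in 3 kinds of table: shallow (30 libraries, at most 4242956), deep (36 libraries, at least 13277742) and time-course (48 libraries, 5368155 to 8267079). Among the 24 MuKu70 libraries on the inducing carbon source, numbers 8, 9 and 10 stand apart from the other 21, with 10.5 to 29.9 CPM for the 5 main cellulase genes together, against 12157 to 95625 CPM. Fold changes and gap changes against these libraries are given with and without them, and group means cover all 24 unless stated. POX01167 was at 1603, 25.3 and 0 CPM in the MuPOX01167 libraries on AV at 12 h and at 95.6, 207 and 153 CPM at 36 h, so these are called the libraries labelled MuPOX01167. In the other MuPOX01167 libraries it was at 0.840 CPM or less. MuKu70 library 30 carries a label of 13 h and was kept in the WA group of 12 h. Nothing in the labels says that libraries of a group came from separate cultures, so p-values measure the spread between these libraries, which may be technical.

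One property of the time-course tables touches POX02740. Dividing its CPM by its deposited FPKM (fragments per kilobase per 1000000 fragments) gives the effective length that the quantification used. POX02740 has a coding length of 975 bases and effective lengths of 972 to 976 in deep tables. The time-course libraries were clustered by the ratio of FPKM to CPM over 3835 genes, with the number of clusters set to 3. The clusters are called quantification sets, are not named by the labels, and hold 1 library of every group each. They were named F, S and T after the replicate letters, which matched in 33 of 33 lettered libraries. MuKu70 libraries carry no letter there and have their set from the clustering alone. Mean log2 distances were at most 0.131 within sets and at least 0.149 between them. The effective length of POX02740 was 1469 to 2638 in set F, 796 to 2286 in set S and 2647 to 8412 in set T. Of 8951 IDs with enough values, 15.1% varied more than 2-fold in this way, and POX02740 varied 10.6-fold. POX07535 (coding length 714 bases) varied only 1.15-fold. Time-course levels of POX02740 are therefore given in FPKM, and fold changes also from edgeR with the effective length as an offset, an alternative chosen after seeing the data. Among the listed genes the effective length also varied for POX00063 (1647 to 7178), POX06783 (673 to 3761) and the main gene POX05570 (628 to 1819). Their coding lengths are 1233, 870 and 801 bases. Time-course fold changes given for these genes are from counts without the offset.

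**Figure D1:**
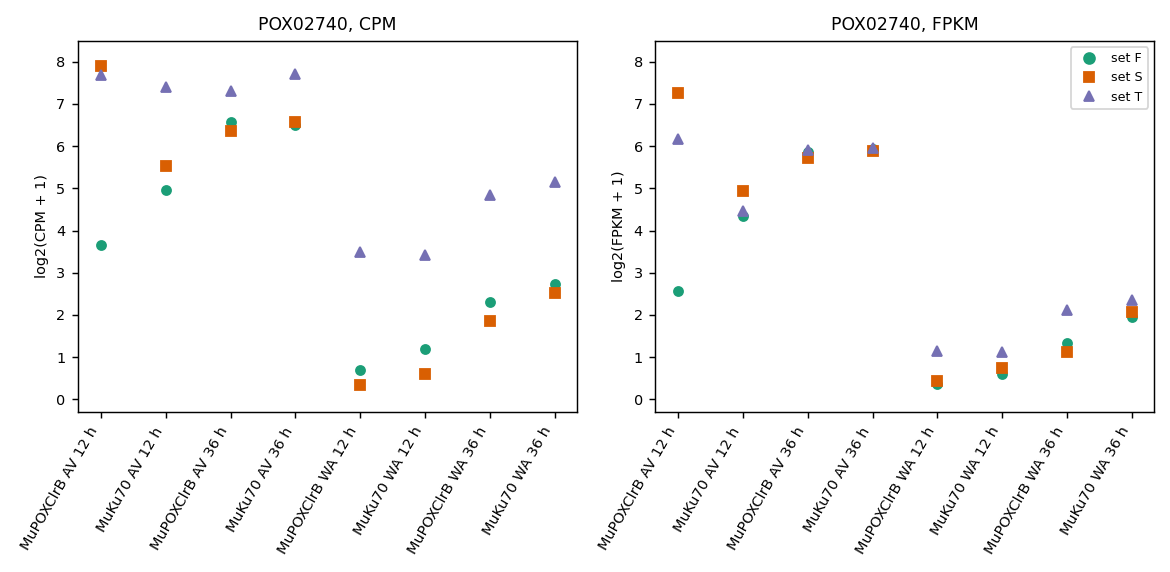
POX02740 in 8 time-course groups, as log2(CPM + 1) on the left and log2(FPKM + 1) on the right; each symbol is a library and its shape and colour give the quantification set. In CPM the set T library of MuKu70 on AV at 36 h is at 209 CPM, against 89.0 and 94.7 in sets F and S, while the same libraries lie between 58.5 and 61.5 in FPKM.

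Across the 33 groups the members covered wide ranges and in different orders. POX07535 was highest in HP7-1 on bran plus rice straw, at 967 CPM, followed by MuPOX02968 on the inducing carbon source (mean 805 CPM) and HP7-1 on wheat bran (623 CPM) and on bran plus bagasse (583 CPM). MuKu70 on the inducing carbon source (mean 308 CPM, and 351 CPM without libraries 8, 9 and 10), MuOES1167 (184 CPM) and MuKu70 on arachidonic acid oil (88.8 CPM) came next. In the other 26 groups its mean was at most 23.2 CPM, down to 2.49 CPM in HP7-1 on glucose and 2.20 CPM in MuPOXClrB on AV at 12 h. Neighbours in this order overlapped in their libraries in 28 of 32 cases.

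POX02740 was highest in HP7-1 on wheat bran, at 394 CPM, followed by MuPOX02968 (mean 296 CPM) and MuKu70 (251 CPM, and 287 CPM without libraries 8, 9 and 10) on the inducing carbon source. Its mean was 81.3 to 182 CPM in 13 further groups, among them all 5 groups of MuPOXClrB outside WA. On WA it averaged 3.43 to 15.02 CPM in every strain, and in HP7-1 on glucose and spore-grown MuPOX01167 2.66 and 1.76 CPM. Here too 30 of 32 neighbours overlapped. By mean FPKM the lowest 12 groups were at 0.613 to 3.41 and the next, MuKu70 on AV at 12 h, was at 23.4.

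**Figure D2:**
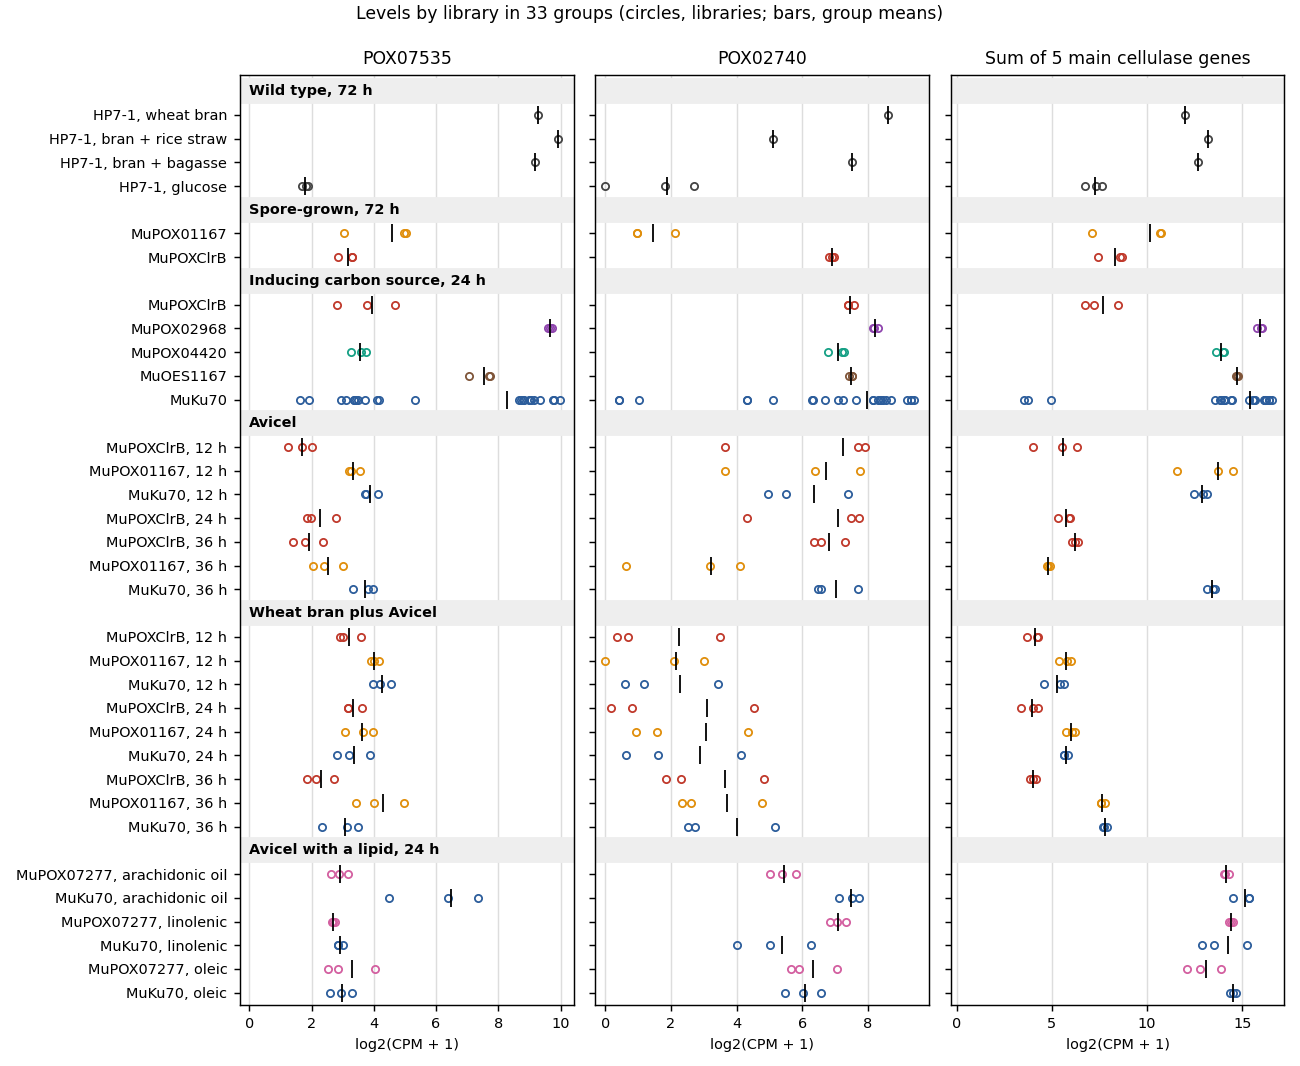
Levels of POX07535, POX02740 and the sum of the 5 main cellulase genes in 33 groups, as log2(CPM + 1); circles are libraries and short bars mark the log2 of the group's mean CPM + 1. POX07535 is above 500 CPM in the 3 wheat-bran libraries of HP7-1 and low on AV and WA in every strain, whereas POX02740 is high in MuPOXClrB except on WA.

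By FPKM, which accounts for length, the members took different places among the 9 cellulase genes. POX07535 was last or next to last in 14 of 33 groups and sixth or higher in 15. POX02740 was last or next to last in 24 groups. It was second of 9 in all 5 MuPOXClrB groups outside WA, where it made up 13.2% to 30.96% of the summed FPKM of the 9 genes. In MuKu70 its share was 0.325% on AV at 12 h and 0.796% on the inducing carbon source. The shares of POX07535 were 18.5% and 14.9% in HP7-1 on wheat bran and on bran plus rice straw, and 26.9% in MuPOXClrB on WA at 12 h, where all 9 genes were low.

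In HP7-1 the members were higher on the wheat-bran media than on glucose, which is what chose them. POX07535 had 623 CPM on wheat bran, 967 CPM on bran plus rice straw and 583 CPM on bran plus bagasse, against 2.73, 2.51 and 2.21 CPM on glucose. POX02740 had 394, 33.7 and 182 CPM on the same 3 media, against 5.47, 2.51 and 0 CPM on glucose, from 2, 1 and 0 counts; the 0 allows up to 3.32 CPM (3 counts). The 3 bran libraries are all above all 3 glucose libraries for both genes, a separation that the choice of the members favoured.

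With glucose pooled, POX07535 was 260-fold higher on wheat bran (95% counting interval 101 to 958), 403-fold on bran plus rice straw (157 to 1481) and 243-fold on bran plus bagasse (94.2 to 896). The ratios for POX02740 were 219 (74.1 to 1068), 18.7 (6.24 to 92.3) and 101 (33.9 to 496). These are Clopper-Pearson intervals and cover counting error only. As the same values chose the members, the intervals are no test of the rise. The main cellulase genes had ratios of 22.9 to 145, and all 5 were at their highest on bran plus rice straw. POX02740 was at its lowest there, 33.7 CPM, and differs in this from POX07535, which had its highest level there. With 1 library per bran medium this has no replicate check.

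On WA, MuKu70 had far less transcript of the main cellulase genes than on AV, and the members parted. POX02740 was lower on WA with the main genes, while POX07535 was not called in either direction. At 12 h POX07535 had 22.6, 14.7 and 17.2 CPM on WA, against 12.3, 16.5 and 12.6 CPM on AV. At 36 h it had 10.3, 7.85 and 4.06 CPM on WA, against 14.6, 13.1 and 9.16 CPM on AV. The ranges overlap at both times, and the log2 fold changes of 0.51 (SE 0.39, adjusted p = 0.328) and -0.53 (SE 0.40, adjusted p = 0.364, edgeR) did not pass. To be called, a gene needed an adjusted p under 0.05 together with a log2 fold change of 1 or more in size.

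POX02740 had 0.52, 0.66 and 1.17 FPKM on WA at 12 h, against 19.2, 29.8 and 21.2 FPKM on AV. At 36 h it had 2.87, 3.22 and 4.14 FPKM on WA, against 60.6, 58.5 and 61.5 FPKM on AV. No WA library reaches an AV library in FPKM. In CPM it had 1.26, 0.525 and 9.79 on WA at 12 h, against 29.98, 44.9 and 169 on AV, and 5.63, 4.77 and 34.7 on WA at 36 h, against 89.0, 94.7 and 209 on AV.

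At 12 h POX02740 fell by 4.28 on the log2 scale (SE 1.77, adjusted p = 0.0484, edgeR), where 15.3% of the 8140 genes tested were called lower. That call ended without MuKu70 library 24, 25, 29 or 30 (adjusted p = 0.0522, 0.166, 0.143 and 0.152), and without library 31 the change was -6.39. At 36 h, where 10.1% of genes were called lower, -2.95 did not pass (SE 1.65, adjusted p = 0.192). With the effective length as an offset it was called at both times (-4.68, adjusted p = 0.000506, and -4.01, adjusted p = 0.00214), as with libraries paired by quantification set (a replicate block; -4.66, adjusted p = 0.000256, and -3.55, adjusted p = 0.00213).

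Of the other 7 cellulase genes 6 fell at 12 h and 6 at 36 h, with medians of -6.82 and -3.53. POX03641 was not called at 12 h (adjusted p = 0.0919) and POX06835 was not at 36 h (-0.62). Among the 4 listed xylanase genes, POX08990 rose at 12 h (2.04) and a pair, POX00063 (-3.68) and POX08484 (-3.27), fell. At 36 h POX00063, POX06783 and POX08484 fell.

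With time on WA, POX07535 fell in MuKu70, while several main genes rose. It had 22.6, 14.7 and 17.2 CPM at 12 h, 13.8, 6.11 and 8.15 CPM at 24 h and 10.3, 7.85 and 4.06 CPM at 36 h. All 24 h and 36 h libraries lie below the 12 h ones. The change was -1.13 from 12 to 24 h (SE 0.40, adjusted p = 0.0312, edgeR; 7.2% of genes were called lower) and -1.199 from 12 to 36 h (SE 0.40, adjusted p = 0.016; 10.1% called lower).

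The 24 h call ended without MuKu70 library 29, 31, 33 or 34 (adjusted p = 0.0948, 0.0566, 0.150 and 0.116), and the 36 h call without library 29 or 37 (adjusted p = 0.0540 and 0.109). Both ended when the groups compared were fitted alone (adjusted p = 0.0624 and 0.0535). POX02740 had 0.90, 0.52 and 1.98 FPKM on WA at 24 h, which overlap its 12 h values, and was not called (0.59 and 2.03, adjusted p = 0.882 and 0.357; 0.34 and 2.09 with the offset, adjusted p = 0.867 and 0.0866). At 36 h 5 of the other 7 cellulase genes were higher than at 12 h, among them POX01166 (4.50) and POX06835 (4.01), and POX03641 was lower (-1.57). Of the 8140 genes tested, 1136 were called higher and 819 lower at 36 h. On AV between 12 and 36 h neither member was called (-0.16 for POX07535 and 0.70 for POX02740; 11.4% of genes were), nor was any of the other 7, with edgeR. The offset gave 1.41 for POX02740 (adjusted p = 0.31).

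On AV, MuPOXClrB had almost no transcript of the main cellulase genes, less POX07535 than MuKu70, and no called difference in POX02740. POX07535 had 2.23, 3.03 and 1.35 CPM in MuPOXClrB at 12 h, against 12.3, 16.5 and 12.6 CPM in MuKu70. The 36 h values were 2.48, 4.20 and 1.62 CPM in MuPOXClrB, against 14.6, 13.1 and 9.16 CPM in MuKu70. The groups do not overlap at either time.

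POX07535 fell by 2.63 at 12 h (SE 0.42, adjusted p = 9.88e-05, edgeR; 1.36% of genes were called lower) and by 2.07 at 36 h (SE 0.41, adjusted p = 0.000494; 3.19% called lower). The 12 h call ended in a fit of the 2 groups alone (adjusted p = 0.12), with the same change. The falls of the main genes were larger, from -8.05 (POX05570) to -6.08 (POX05587) at 12 h and from -8.14 (POX04786) to -5.93 (POX05570) at 36 h. Their sum was 15.1, 79.0 and 45.8 CPM in MuPOXClrB at 12 h, against 5585, 9033 and 7718 CPM in MuKu70.

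POX02740 had 4.97, 151 and 70.9 FPKM in MuPOXClrB on AV at 12 h, against 19.2, 29.8 and 21.2 FPKM in MuKu70. The set F library is the low one among the MuPOXClrB libraries and lies below all 3 of MuKu70, the other 2 lie above. The FPKM at 36 h were 57.5, 52.0 and 59.4 in MuPOXClrB, against 60.6, 58.5 and 61.5 in MuKu70. At 24 h, where MuKu70 was not sampled on AV, MuPOXClrB had 10.4, 111 and 71.6 FPKM.

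Neither difference was called (0.94, SE 1.54, adjusted p = 0.993 at 12 h and -0.17, SE 1.53, adjusted p = 1 at 36 h, edgeR). The offset gave 1.78 (SE 0.92) and -0.02 (SE 0.89). With such errors a difference of several fold in either direction could not have been seen in the counts. Of the other 7 cellulase genes 6 fell at both times and POX06835 was not called (0.24 and 0.60), and of the xylanase genes 4 of 4 fell at 12 h and 3 of 4 at 36 h.

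On WA neither member was called between MuPOXClrB and MuKu70 at any time with edgeR, and 5 of the other 7 cellulase genes fell at 36 h, POX05570 most (-4.45). POX07535 had 7.14, 11.1 and 6.61 CPM in MuPOXClrB at 12 h, against 22.6, 14.7 and 17.2 CPM in MuKu70, and no library of MuPOXClrB reaches MuKu70 there (-1.15, SE 0.40, adjusted p = 0.297; 0.209% of genes were called lower). At 24 h it had 7.91, 11.2 and 7.95 CPM in MuPOXClrB, against 13.8, 6.11 and 8.15 CPM in MuKu70 (-0.04; 0.725% of genes were called). The 36 h values were 5.65, 3.43 and 2.63 CPM in MuPOXClrB, against 10.3, 7.85 and 4.06 CPM in MuKu70 (-1.12, SE 0.40, adjusted p = 0.125; 1.19% called lower). With libraries paired by quantification set it was called there (-1.10, adjusted p = 0.0472). The effect of the deletion on WA minus that on AV was 1.48 (SE 0.56, adjusted p = 0.376; 0.848% of genes were called) at 12 h and 0.95 (SE 0.56, adjusted p = 0.373; 7.99% called) at 36 h, so the fall of POX07535 on AV was not shown to differ from that on WA.

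POX02740 was between 0.17 and 3.3 FPKM in the 9 MuPOXClrB libraries on WA and between 0.52 and 4.14 FPKM in the 9 of MuKu70, with log2 differences of -0.07, 0.24 and -0.57 at the 3 times, and of -0.26, -0.04 and -0.88 with the offset, none called. The difference of effects between WA and AV was -1.01 at 12 h and -0.39 at 36 h (adjusted p = 1 for both), and -2.03 and -0.87 with the offset (adjusted p = 0.889 and 0.81).

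Within MuPOXClrB the members moved in opposite directions between the media at 12 h. POX07535 had 7.14, 11.1 and 6.61 CPM on WA, against 2.23, 3.03 and 1.35 CPM on AV, and rose by 1.99 (SE 0.41, adjusted p = 0.000162, edgeR; 14.1% of genes were called higher). POX02740 had 0.28, 0.34 and 1.22 FPKM on WA, against 4.97, 151 and 70.9 FPKM on AV, and fell by 5.30 (SE 1.85, adjusted p = 0.0178; 18% called lower). This fall was not called without MuPOXClrB library F or S on WA (adjusted p = 0.0716 and 0.0704), was -8.35 without library T, and was not called in a fit of the 2 groups alone (adjusted p = 0.0755). The offset gave -6.71 (SE 1.17, adjusted p = 1.3e-05).

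At 36 h POX07535 was not called within MuPOXClrB (0.42, SE 0.40, adjusted p = 0.488). POX02740 had 1.51, 1.17 and 3.30 FPKM on WA at 36 h, against 57.5, 52.0 and 59.4 FPKM on AV. The counts gave -3.35 (adjusted p = 0.131; 11.5% of genes were called lower). With the offset it was called (-4.88, adjusted p = 0.000383), and with libraries paired by set likewise (-4.18, adjusted p = 0.000529). No WA library of MuPOXClrB reaches an AV library at 36 h in FPKM.

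The libraries labelled MuPOX01167 on AV differed in their cellulase transcript from one to another and between the times. At 12 h POX07535 had 10.6, 8.54 and 8.14 CPM, against 12.3, 16.5 and 12.6 CPM in MuKu70 (-0.76, SE 0.40, adjusted p = 0.15, edgeR; 17.1% of genes were called). At 36 h it had 7.02, 3.15 and 4.31 CPM, against 14.6, 13.1 and 9.16 CPM in MuKu70, with no overlap, and fell by 1.42 (SE 0.40, adjusted p = 0.00474; 15.5% of genes were called lower).

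POX02740 had 53.6, 5.17 and 29.4 FPKM at 12 h in the libraries labelled MuPOX01167, against 19.2, 29.8 and 21.2 FPKM in MuKu70 (0.18, adjusted p = 0.969, and the same value with the offset, adjusted p = 0.918). The 36 h values were 3.08, 0.24 and 1.92 FPKM, against 60.6, 58.5 and 61.5 FPKM in MuKu70. The counts gave -4.05 (SE 1.74, adjusted p = 0.0597), and the call was made with the offset (-5.19, adjusted p = 0.00016), with pairing by set (-4.46, adjusted p = 0.00024) and with DESeq2 (adjusted p = 0.0132). All 7 other cellulase genes fell there, by 1.52 (POX06835) to 9.62 (POX04786), and 4 of 4 xylanase genes fell. Since POX01167 was present in these libraries, the direction belongs to the label only.

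On WA neither member was called in MuPOX01167 at 12, 24 or 36 h. The log2 differences were -0.28, 0.27 and 1.17 for POX07535 and -0.19, 0.22 and -0.44 for POX02740 (-0.24, 0.12 and -0.41 with the offset), and 0 of the other 7 cellulase and 0 of the 4 xylanase genes were called by edgeR (0.209%, 0.0737% and 0.356% of all genes). POX02740 lay between 0 and 3.18 FPKM in the 9 MuPOX01167 libraries on WA. For POX07535 at 36 h the values were 30.3, 9.83 and 15.2 CPM in MuPOX01167, against 10.3, 7.85 and 4.06 CPM in MuKu70 (adjusted p = 0.364). They overlap through a single MuPOX01167 library.

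On the inducing carbon source the 24 MuKu70 libraries spread widely, and POX07535 fell into 2 separate ranges. It was at 407 to 1006 CPM in 12 libraries and at 2.09 to 38.8 CPM in the other 12, with no value in the 10.5-fold step between. The high ones are the 9 shallow libraries other than 8, 9 and 10, together with the deep libraries 11, 12 and 13 (644, 568 and 505 CPM). The low ones are libraries 8, 9 and 10 and the deep libraries 14 to 22 (7.61 to 38.8 CPM). Depth class and level are thus not the same split.

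The main cellulase genes summed to 47745 to 50977 CPM in libraries 11 to 13 and to 12157 to 41400 CPM in libraries 14 to 22. Per 1000 CPM of the main genes, POX07535 was at 10.2 to 12.6 CPM in libraries 11 to 13, at 5.17 to 10.5 CPM in the 9 shallow ones and at 0.433 to 1.02 CPM in libraries 14 to 22. The labels give these libraries 1 condition, and what sets them apart was not tested. The xylanase gene POX08990 was likewise at 180 to 197 CPM in libraries 11 to 13, at 25.3 to 131 CPM in the 9 shallow ones and at 3.44 to 11.3 CPM in libraries 14 to 22.

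POX02740 had no step above 2.29-fold among the 21 libraries other than 8, 9 and 10, which lie below them by a step of 18.1-fold. It was at 197 to 671 CPM in the 9 shallow libraries, at 287 to 327 CPM in libraries 11 to 13, at 18.9 to 335 CPM in libraries 14 to 22 and at 0.331 to 1.05 CPM in libraries 8, 9 and 10. Per 1000 CPM of the main genes it was at 2.50 to 8.38, at 5.80 to 6.84 and at 1.27 to 8.09 CPM in the first 3 of these.

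**Figure D3:**
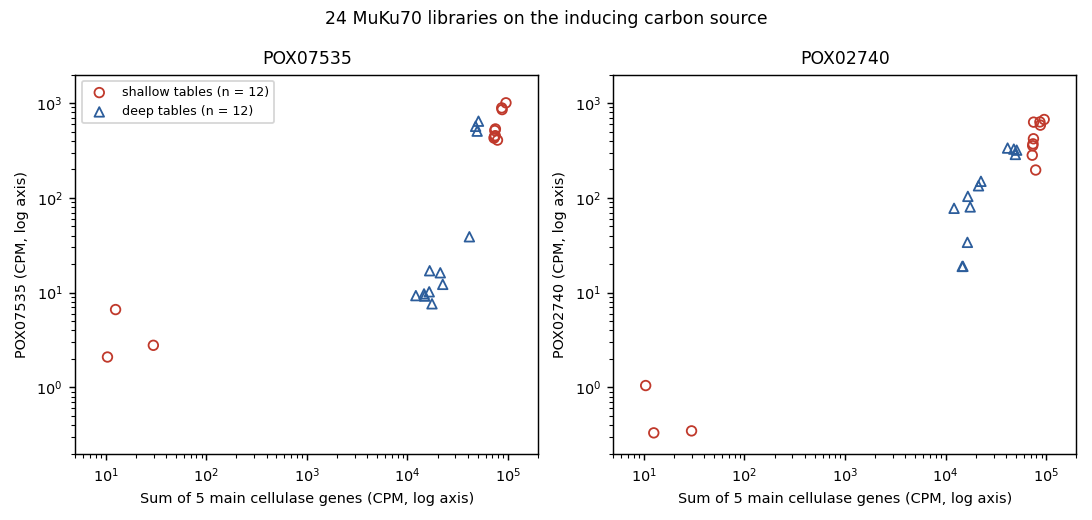
CPM of POX07535 (left) and POX02740 (right) against the CPM sum of the 5 main cellulase genes in 24 MuKu70 libraries on the inducing carbon source, all axes logarithmic; symbols give the kind of table. POX07535 is at 7.61 to 38.8 CPM in 9 deep libraries and at 505 to 644 CPM in the other 3, while POX02740 runs from 18.9 to 335 CPM over the same 12.

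With this spread, no member was called by edgeR in any comparison with the 24 MuKu70 libraries. POX07535 had 6.01, 24.6 and 12.8 CPM in MuPOXClrB and 8.68, 12.3 and 10.9 CPM in MuPOX04420, within the low range of MuKu70 (in all 24, lowest 2.09, highest 1006 CPM). The log2 differences were -4.62 (SE 2.04, adjusted p = 0.118; 3.32% of genes were called lower) and -5.07 (SE 2.10, adjusted p = 0.219; 0.761% called lower). Both strains have shallow tables. Without MuKu70 libraries 8, 9 and 10 they were -4.81 (adjusted p = 0.0659) and -5.26 (adjusted p = 0.0992), and against the 12 shallow MuKu70 libraries -5.22 (adjusted p = 0.057) and -5.69 (adjusted p = 0.0578). With DESeq2 it was called against all 24 (adjusted p = 0.00474 and 0.00628).

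POX02740 had 166, 189 and 168 CPM in MuPOXClrB and 108, 154 and 146 CPM in MuPOX04420, inside the range of 0.331 to 671 CPM in MuKu70. All of these values lie below the 9 shallow MuKu70 libraries other than 8, 9 and 10 (197 to 671 CPM). The range reaches lower through libraries 8, 9 and 10 (0.331 to 1.05 CPM) and deep libraries 14 to 22 (18.9 to 335 CPM). Against all 24 libraries POX02740 differed by -0.63 (SE 1.202, adjusted p = 0.748) and -1.10 (SE 1.25, adjusted p = 0.722). Without libraries 8, 9 and 10 the differences were -0.82 (adjusted p = 0.504) and -1.29 (adjusted p = 0.422). Against the 9 shallow libraries other than these, POX02740 was called lower in both strains, as given further below. All 5 main genes fell in MuPOXClrB, between -6.96 (POX05571) and -9.76 (POX04786), with POX03641 (-4.67) and 3 of the 4 xylanase genes, whereas POX06835 was not called. In MuPOX04420 none of the other 7 and none of the 4 was called against all 24. The main genes summed to 16630, 12521 and 16183 CPM in MuPOX04420, against 10.5 to 95625 CPM in MuKu70 and 72806 to 95625 CPM in its 9 shallow libraries other than 8, 9 and 10.

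In MuPOX02968 POX07535 had 776, 839 and 801 CPM and POX02740 had 291, 283 and 313 CPM. Both strains compared here, MuPOX02968 and MuOES1167, have deep tables. The levels of MuPOX02968 are within the high range of MuKu70, and the differences were 1.32 (SE 1.25, adjusted p = 0.557; 0.972% of genes were called higher) and 0.18 (adjusted p = 0.944), or 1.13 (adjusted p = 0.56) and -0.01 (adjusted p = 0.994) without libraries 8, 9 and 10. In MuOES1167 POX07535 had 131, 209 and 212 CPM, in the step between the 2 ranges of MuKu70, where none of the 24 libraries lies, and POX02740 had 169, 181 and 181 CPM. The differences from MuKu70 were -0.81 (SE 1.51, adjusted p = 0.83; 0.0352% of genes were called lower) and -0.55 (adjusted p = 0.855), or -0.96 (adjusted p = 0.741) and -0.71 (adjusted p = 0.675) without libraries 8, 9 and 10. Against deep MuKu70 libraries alone they were 0.24 and 0.18. None of the other 7 cellulase or 4 xylanase genes was called in either strain.

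With arachidonic acid oil, which took part in choosing the members, both were higher in MuKu70 than with the other lipids and lower in MuPOX07277 than in MuKu70. POX07535 had 6.42, 5.18 and 7.98 CPM in MuPOX07277 with the oil, against 21.5, 163 and 82.3 CPM in MuKu70. Its mean in MuKu70 with the oil, 88.8 CPM, was 13.7-fold that with linolenic acid (7.10, 6.15 and 6.18 CPM) and 12.9-fold that with oleic acid (8.87, 5.002 and 6.77 CPM). The 3 oil libraries of MuKu70 differ from one another more than the other lipid groups do, and the lowest is library 38. Without oil library 39 of MuKu70 these ratios were 8.01 and 7.54. In MuPOX07277 its mean with the oil was 1.18-fold that with linolenic acid and 0.743-fold that with oleic acid, or 1.19-fold without oleic acid library F. The MuPOX07277 libraries described as linolenic acid carry titles that read "linol", so the acid in that strain rests on the description.

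POX02740 had 40.6, 31.7 and 54.6 CPM in MuPOX07277 with the oil, against 139, 181 and 209 CPM in MuKu70. Its mean in MuKu70 with the oil was 4.32-fold that with linolenic acid (31.1, 15.1 and 76.3 CPM) and 2.62-fold that with oleic acid (93.8, 64.3 and 43.9 CPM). In MuPOX07277 its mean with the oil was 0.311-fold that with linolenic acid and 0.531-fold that with oleic acid, the other direction from MuKu70. The sum of the main cellulase genes in MuKu70 was 1.84-fold and 1.54-fold higher with the oil, and the xylanase gene POX08990 6.85-fold and 7.26-fold. Without linolenic acid library 43 of MuKu70 the ratio to linolenic acid was 7.64 for POX02740 and 3.71 for the main gene sum. In MuPOX07277 with the oil the main gene sum was 0.512-fold that of MuKu70, beside 0.0735-fold for POX07535 (0.126 without MuKu70 library 39) and 0.24-fold for POX02740. The 5 main genes ranged from 0.342-fold (POX04786) to 0.9947-fold (POX05587), POX03641 was at 0.242-fold and POX06835 at 2.30-fold. The xylanase genes POX00063, POX06783, POX08484 and POX08990 were at 0.235, 0.19, 0.155 and 0.341-fold, and 3 of these 4 ratios are below that of POX02740. The lipid libraries are all deep tables.

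The C18 acids allow a test of MuPOX07277 against MuKu70. The fit also held the arachidonic acid oil libraries, so its estimate of spread drew on values that took part in choosing the members. With only the groups compared in the fit, the calls of both members with the C18 acids stayed the same. POX02740 had 162, 114 and 132 CPM in MuPOX07277 with linolenic acid, against 31.1, 15.1 and 76.3 CPM in MuKu70, without overlap. It rose by 1.74 (SE 0.47, adjusted p = 0.0105, edgeR; 9.34% of genes were called higher), but the call ended without MuKu70 library 41 (1.56, adjusted p = 0.0518), and without library 43 the change was 2.58. With oleic acid it had 49.5, 131 and 58.3 CPM in MuPOX07277, against 93.8, 64.3 and 43.9 CPM in MuKu70, which overlap (0.40, SE 0.45, adjusted p = 0.449; 22.4% of genes were called higher).

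POX07535 had 5.74, 5.31 and 5.50 CPM in MuPOX07277 with linolenic acid, against 7.10, 6.15 and 6.18 CPM in MuKu70. These do not overlap, but the difference was not called (-0.22, adjusted p = 0.814, edgeR). With oleic acid it had 15.4, 4.79 and 6.23 CPM, against 8.87, 5.002 and 6.77 CPM in MuKu70 (0.68, adjusted p = 0.32). With linolenic acid POX06835 (1.95) rose among the other 7 and POX08990 (1.06) among the xylanase genes. With oleic acid POX03641, POX04786, POX05570 and POX05571 fell and POX06835 rose (1.70), as did POX08990 (1.67). Of the 8484 genes tested with oleic acid, 889 were called lower and 1901 higher. Between linolenic and oleic acid in MuKu70 neither member was called (-0.11 for POX07535 and -0.74 for POX02740; 0.165% of all genes were).

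Grown from spores for 72 h on the inducing carbon source, MuPOX01167 had almost no POX02740 and MuPOXClrB had much of it. POX02740 had 0.939, 0.961 and 3.39 CPM in MuPOX01167, against 123, 118 and 112 CPM in MuPOXClrB, and was lower in MuPOX01167 by 6.15 on the log2 scale (SE 0.42, adjusted p = 3.88e-05, edgeR; 17.4% of genes were called lower). Without MuPOX01167 library T the difference was -7.04. POX06835 was the only other one of the 9 that was lower (-6.63), and POX05571 was higher (2.67).

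POX07535 had 30.5, 7.20 and 31.99 CPM in MuPOX01167, against 8.75, 6.13 and 8.89 CPM in MuPOXClrB (1.33, SE 0.56, adjusted p = 0.0845; 18% of genes were called higher). Library S of MuPOX01167 is the low one, where the main genes sum to 139 CPM beside 1675 and 1621 CPM in F and T, and without it the difference was called (1.72, adjusted p = 0.0119). Spore-grown MuKu70 was not sampled, so both are compared with each other only. Between spore-grown and transferred MuPOXClrB neither member was called (-0.92 for POX07535 and -0.70 for POX02740, adjusted p = 0.292 and 0.165; 6.02% of genes were called lower).

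Where the members part from the main cellulase genes was measured in each library as a gap: the log2(CPM + 1) of the member minus the mean log2(CPM + 1) of the 5 main genes. A change in gap between groups was tested by an exact two-sided permutation within times or media, with Benjamini-Hochberg adjustment over 22 tests. For the time course the libraries were also paired by quantification set and time (a replicate block, added after seeing the data), with exact sign changes of the paired differences. With 6 pairs its smallest p is 0.03125, which became 0.0859 after adjustment over the 22 tests, so a call lost there says nothing about stability. A positive change means that the member lost less, or gained more, than the main genes. The comparisons of WA with AV and of MuPOXClrB with MuKu70 on AV share the MuKu70 libraries on AV, and all induced comparisons share the same 24 MuKu70 libraries.

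In MuKu70 the gap of POX07535 averaged -0.12 on WA and -6.72 on AV, a change of 6.60 (exact permutation, adjusted p = 0.0183, and 0.0859 paired), with no overlap between 6 and 6 libraries. The WA mean describes neither time, as the gaps there were 2.52, 1.34 and 1.52 at 12 h and -1.52, -1.76 and -2.82 at 36 h. The gap of POX02740 averaged -1.13 on WA and -4.06 on AV, a change of 2.93 (exact permutation, adjusted p = 0.0183, and 0.0859 paired), also without overlap. The second change was 1.66 (exact permutation, adjusted p = 0.128) when POX03641 and POX06835 were counted with the main genes.

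In MuPOXClrB on AV the gap of POX07535 averaged -1.59, against -6.72 in MuKu70, a change of 5.13 (exact permutation, adjusted p = 0.0183, and 0.0859 paired). That of POX02740 averaged 3.24 in MuPOXClrB, against -4.06 in MuKu70, a change of 7.31 (exact permutation, adjusted p = 0.0183, and 0.0859 paired). In each of these 4 comparisons all 6 pairs differ in 1 direction. All 6 MuPOXClrB libraries on AV have more POX02740 than the mean of the main genes, from 2.01 to 4.49 on the log2 scale, and all 6 of MuKu70 have less.

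On the inducing carbon source the gap of POX02740 averaged 2.70 in MuPOXClrB and -4.46 in MuKu70, a change of 7.16 (exact permutation, adjusted p = 0.00752), without overlap. It was 7.60 without MuKu70 libraries 8, 9 and 10 and 6.61 against shallow libraries alone (exact permutation, adjusted p = 0.00543 and 0.0138). The gap of POX07535 averaged -0.99 in MuPOXClrB and -4.90 in MuKu70 (3.91, exact permutation, adjusted p = 0.0279). This change was 4.63 without libraries 8, 9 and 10 (exact permutation, adjusted p = 0.00543), but 2.21 against shallow libraries alone, where it was not called (exact permutation, adjusted p = 0.148). It was not called either when POX04786 was left out of the main genes (3.47, exact permutation, adjusted p = 0.0686) or POX03641 and POX06835 were counted with them (2.51, exact permutation, adjusted p = 0.128).

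On WA the gap of POX07535 was larger in MuPOXClrB than in MuKu70 by 1.17 (1.09 against -0.09, exact permutation, adjusted p = 0.0289), with overlapping libraries. Paired by set it was not called (adjusted p = 0.0859, exact), with 7 of 9 pairs larger in MuPOXClrB. That of POX02740 was larger by 1.45 (0.29 against -1.15, exact permutation, adjusted p = 0.191), and paired it was called (adjusted p = 0.0367, exact), with all 9 pairs larger in MuPOXClrB. In FPKM the POX02740 change was 1.39 (exact permutation, adjusted p = 0.0157). With the C18 acids the gap of POX02740 averaged -4.30 in MuPOX07277 and -5.94 in MuKu70, a change of 1.64 (exact permutation, adjusted p = 0.0183) without overlap. For POX07535 it was 0.55 (exact permutation, adjusted p = 0.66).

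Against all 24 MuKu70 libraries no gap change was called in MuPOX02968, MuPOX04420 or MuOES1167. The changes were 1.42, -2.66 and 0.46 for POX07535 and -0.46, 0.45 and -0.0028 for POX02740. Without libraries 8, 9 and 10 the changes for POX07535 were 2.14, -1.93 and 1.18 in these strains (exact permutation, adjusted p = 0.1, 0.17 and 0.455), and for POX02740 -0.02, 0.89 and 0.44 (exact permutation, adjusted p = 1, 0.133 and 0.485). Against MuKu70 libraries of the same depth class that of POX07535 was larger in MuPOX02968 (3.12, exact permutation, adjusted p = 0.0138) and smaller in MuPOX04420 (-4.36, exact permutation, adjusted p = 0.0138). The MuPOX02968 gaps (-3.61, -3.46 and -3.37) lie beside those of deep MuKu70 libraries 11 to 13 (-3.58, -3.68 and -3.89), and libraries 14 to 22 lie lower. The MuPOX04420 gaps (-7.94, -7.16 and -7.57) lie within the range of deep libraries 14 to 22 (-8.21 to -6.99). Its shallow reference holds libraries 8, 9 and 10 (-0.85, 1.23 and 0.12) and 9 others at -4.86 to -3.72. All of these lie above the MuPOX04420 gaps. MuKu70 libraries under the same label thus lie both near each strain and away from it. Whether either call is a difference of the strain was not tested. In spore-grown cultures the gap of POX02740 averaged -5.57 in MuPOX01167 and 1.14 in MuPOXClrB, and with 3 against 3 libraries the exact p of 0.1 is the smallest possible.

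**Figure D4:**
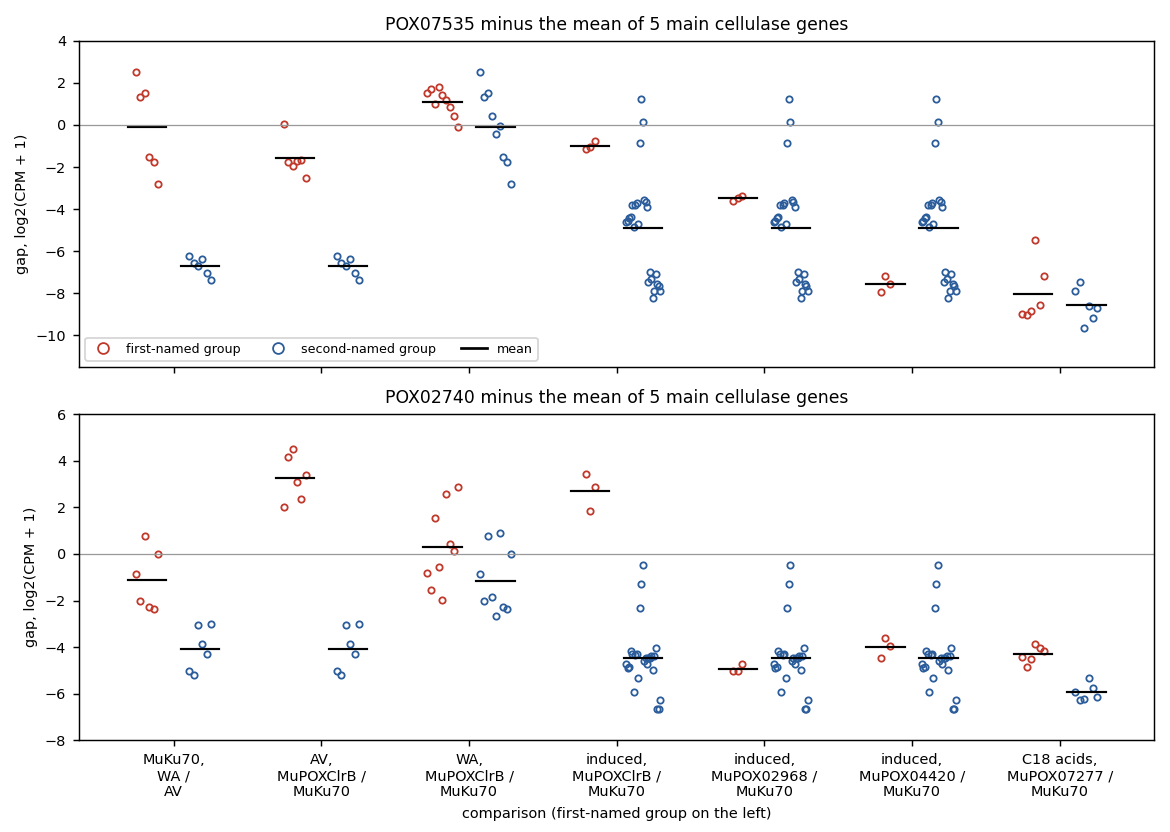
Gap of POX07535 (top) and POX02740 (bottom) below or above the 5 main cellulase genes, in log2(CPM + 1) units, in 7 comparisons; circles are libraries, black lines are means, and the first-named group is on the left in red. POX02740 is above 0 in all MuPOXClrB libraries on AV and on the inducing carbon source and below 0 in all MuKu70 libraries there.

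Likeness between genes was described by Pearson's r of log2(mean CPM + 1) per group over 33 groups, among 8579 genes averaging 1 CPM or more. The groups share media, strains and table kinds. They include HP7-1 on glucose and wheat-bran media and the arachidonic acid oil groups, whose values chose the members. Each r over the 33 groups is therefore a description that the choice of the members may have shaped. The members were not alike, with r = 0.39, and over 15 time-course groups (MuPOXClrB on AV at 24 h left out) r was -0.39. POX07535 was most like POX06600 (0.92), POX05540 (0.91), POX09258 (0.90), POX09085 (0.89) and the xylanase gene POX08990 (0.88). The same 5 led in FPKM, and over the 15 time-course groups 1 of them, POX09085, stayed among the first 5. Over those groups r in CPM was 0.92 for POX09085 and 0.64 to 0.68 for the rest of the 5. With the main cellulase genes its r was 0.48 to 0.57.

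POX02740 was most like POX02739 (0.93), whose ID is next to its own, and then POX01184, POX01833, POX07536 and POX02308 (0.82 to 0.83). POX07536 carries the ID next to POX07535. In FPKM 2 of the 5, POX02739 and POX02308, stayed among the first 5, and over the 15 time-course groups none did. There r in CPM was 0.86 to 0.95 for these 5. Its r with the main cellulase genes was 0.57 to 0.69. POX02739 averaged 59.0 CPM in MuPOXClrB and 601 CPM in MuKu70 on the inducing carbon source, while POX02740 averaged 174 and 251 CPM. Nothing in the sources used here says how reads from neighbouring or similar genes were divided.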

How the data were processed

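The authors deposited, per the file headers, expected counts (estimated reads per gene) and FPKM for each library; the TPM values deposited in some tables were not used. The submitters' processing notes name RSEM 1.2.12, Bowtie2 2.1.0, DESeq2 and BWA 0.7.10-r789; their roles, the build and the annotation are not given in the sources used here. Expected counts were rounded, which moved at most 0.009% of a library. CPM are counts per 1000000 of the library total.

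Groups were compared with edgeR 4.0.16 (quasi-likelihood, TMM, genes averaging 1 CPM or more, Benjamini-Hochberg over all genes); a call needed an adjusted p under 0.05 and a log2 fold change of 1 or more in size. The time-course comparisons shared a fit of 45 libraries. Same-set libraries of the time course deviated together (r = 0.56 to 0.93 over 51 pairs), so the sets pair them; same-letter libraries of the spore-grown comparisons did not (0.0073 to 0.066). Alternatives were other size factors, DESeq2 1.42.0, limma 3.58.1 on log2(FPKM + 1), no filter, smaller fits, a replicate block and leaving out libraries. Some of the fits were also run on simulated counts, with the same spread for all genes and no quantification sets. The members vary otherwise, so nothing about them is concluded from this.

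The members and lists were chosen with earlier results of these data known. Named were the members, the listed and targeted genes, IDs next to the members and the 5 genes most like each.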

Additional observations from a re-analysis of the deposited data

How the results depend on the processing

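Leaving out 1 library kept the call and direction of 860 tested values, turned 46, and lost 13 calls and gained 5. Other settings kept 502, turned 23, lost 17 and gained 22. For a gap with a library left out, a call here means an unadjusted exact permutation p under 0.05. It was set against the unadjusted p of all libraries, so the adjusted gap calls were not checked by leaving out libraries. No call changed its direction, and all turned values were uncalled. Calls of POX02740 between WA and AV depended on the fit: at 12 h in MuKu70 the fall was no longer called with no filter (-4.28) or with the groups alone (-4.29), and in MuPOXClrB with the groups alone (-5.29). At 36 h the fall, not called in the counts, was called in MuKu70 with limma (-3.80) and the offset (-4.01), in MuPOXClrB likewise (-4.32 and -4.88), and in the libraries labelled MuPOX01167 against MuKu70 with limma (-4.64), the offset (-5.19), DESeq2 (-4.11) and the groups alone (-4.06). Paired by a replicate block these were -3.55, -4.18 and -4.46, and POX07535 between MuPOXClrB and MuKu70 on WA at 36 h was called (-1.10). The block gave no other new or lost fold change call; it turned the uncalled POX02740 values of MuPOXClrB at 24 h (-0.025) and MuPOX01167 at 12 h (0.10) on WA. The replicate block took the call from the gaps of POX07535 and POX02740 between WA and AV (6.60 and 2.93) and in MuPOXClrB on AV (5.13 and 7.31), where 6 pairs allow no smaller p, and of POX07535 in MuPOXClrB on WA (1.17), and gave one to POX02740 there (1.45). The cause was not tested. POX07535 on WA was not called with the groups alone at 24 h (-1.09) and 36 h (-1.18) or with limma at 24 h (-0.96), nor in MuPOXClrB on AV at 12 h with the groups alone (-2.63).

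On the inducing carbon source POX07535 was called with DESeq2 in MuPOXClrB (-4.61) and MuPOX04420 (-5.09), and against shallow libraries without 8, 9 and 10 (-5.63 and -6.07), as was POX02740 (-1.54 and -1.98). Those 9 shallow libraries hold none of the low POX07535 range of MuKu70. That range lies in libraries 8, 9 and 10 and in deep libraries 14 to 22. For POX02740 the 9 lie at 197 to 671 CPM, above every library of MuPOXClrB and MuPOX04420 on this carbon source. Deep libraries 14 to 22 run from 18.9 to 335 CPM. Whether these calls belong to the strains or to the choice of MuKu70 libraries was not tested. Uncalled values that turned were POX02740 with limma in MuPOXClrB (0.79), MuPOX04420 (0.42), MuOES1167 (0.72), MuPOXClrB on WA at 24 h (-0.22, and -0.042 with the offset) and MuPOX01167 on AV at 12 h (-0.14), and without libraries 8, 9 and 10 in MuPOX02968 (-0.011). For POX07535 they were MuOES1167 (1.19) and MuPOXClrB on WA at 24 h (0.0029), both with limma. Against deep libraries MuOES1167 turned for POX02740 (0.18) and POX07535 (0.24).

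For the gap of POX07535, the call in MuPOXClrB was lost on WA with a pseudocount of 5 (0.77), and on the inducing carbon source without POX04786 (3.47), with POX03641 and POX06835 (2.51) and in the same depth class (2.21), where MuPOX02968 (3.12) and MuPOX04420 (-4.36) gained one; in spore-grown cultures it turned with a pseudocount of 5 (-0.18). The gap of POX02740 lost its call between WA and AV with POX03641 and POX06835 (1.66) and gained one in MuPOXClrB on WA in FPKM (1.39). It turned in MuPOX02968 with POX03641 and POX06835 (0.0085) and in the same depth class (0.085), in MuPOX04420 in that class (-0.097), and in MuOES1167 with a pseudocount of 0.1 (0.11), in FPKM (0.016), without POX04786 (0.11), with POX03641 and POX06835 (0.068), without libraries 8, 9 and 10 (0.44) and in the same class (0.55).

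With each library left out in turn, called changes ran for POX02740 from -6.39 to -3.17 (MuKu70, WA against AV, 12 h), -8.35 to -4.74 (MuPOXClrB, WA against AV, 12 h) and 1.34 to 2.58 (linolenic acid), and for POX07535 from -1.43 to -0.91 (MuKu70 on WA, 24 h) and -1.49 to -0.90 (36 h). Uncalled ones of POX02740 ran from -1.73 to 2.72 (MuKu70 on WA, 24 h against 12 h), -0.53 to 0.35 (MuPOXClrB on AV, 36 h), and for MuPOXClrB on WA -3.12 to 2.05, -3.87 to 2.63 and -2.34 to 0.94 at the 3 times. For MuPOX01167 they were -0.88 to 1.26 on AV at 12 h, and -1.27 to 1.93, -2.19 to 2.58 and -1.82 to 1.07 on WA. The difference of MuPOXClrB effects ran from -4.07 to 1.11 at 12 h and -2.15 to 1.12 at 36 h, and oleic acid from -0.15 to 0.70. Those of POX07535 ran from -0.38 to 0.096 (MuKu70 on AV), -0.26 to 0.27 (MuPOXClrB on WA, 24 h), -0.30 to 0.94 (oleic acid), -0.29 to 0.099 (linolenic against oleic acid) and 1.02 to 1.72 (spore-grown, called without MuPOX01167 library S). Gaps ran from -0.47 to 0.34 (POX07535, spore-grown), and for POX02740 from 1.02 to 1.80 (MuPOXClrB on WA) and 1.37 to 2.23 (MuPOX01167 on AV). These 2 POX02740 gaps had an unadjusted exact permutation p under 0.05 without some libraries (3 of 18 and 1 of 12). The POX02740 gap ran from -0.56 to 0.096 in MuPOX01167 on WA and from -0.099 to 0.17 in MuOES1167. Depth limits glucose most, where the members have 4 and 3 counts in all.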
